A study of Homo sapiens with 12 samples.

Results

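The spliceosomal small nuclear RNA (snRNA) genes counted in total RNA of VCaP cells are described here, with siRNA against FOXA1 (siFOXA1) set against a non-targeting siRNA (NSI). The members were selected on their level alone: they are the rows of the gene tables with the gene type snRNA, other than RN7SK, whose mean over the 6 VCaP libraries was at least 1 CPM (counts divided by the library total and multiplied by 1000000). There were 117 such rows of 1912 snRNA rows and of 60106 rows in all. The level was taken over both groups together, so the rule used the libraries that are compared, and a member near the floor can have passed through the group where it is high. VCaP, an established prostate cancer line that carries a rearranged ERG gene, was grown in DMEM and transfected with 40 nM of either siRNA, and total RNA was taken after 72 h, with 3 libraries per group. PC3, another prostate cancer line, was grown in RPMI, received 20 nM of the same kinds of siRNA for the same time and was sequenced from polyadenylated RNA, also with 3 libraries per group. Line, dose, medium, library kit and strand setting of the counting therefore cannot be told apart. The labels do not say that the 3 libraries of a group came from separate cultures, so p-values measure the spread between these libraries, which may be technical. All values are relative to the library, and in bulk RNA fewer cells with an RNA and less of it per cell cannot be told apart.

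The snRNAs form the RNA core of the spliceosome, the machine that removes introns from messenger RNA precursors. U1 pairs with the start of the intron, U2 with the branch point, and U4 delivers U6 in a paired form that is opened before catalysis. U5 holds the ends of both exons, and U6 takes part in the catalytic centre. U4atac and U6atac do the work of U4 and U6 in the minor spliceosome, and U7, which is no spliceosomal RNA, guides the cutting of histone messenger RNA precursors. RNA polymerase II makes most of them and RNA polymerase III makes U6 and U6atac. The genes exist in many copies, and annotation lists many further copies that are regarded as pseudogenes. None of these RNAs carries a poly(A) tail, so they are read from total RNA.

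The U1, U2 and U4 copies on which the results turn are printed first, on the transcript strand of GRCh37, because copies that differ by few bases were counted separately. Capitals mark the letters that pair with the intron in U1 (ACTTACCTG) and U2 (GTAGTA), and the Sm-like letters ATTTNT on which the ring of Sm proteins is built. A copy without capitals at these places does not hold those exact letters.
RNU1-1, chr1:16840617-16840780, minus strand: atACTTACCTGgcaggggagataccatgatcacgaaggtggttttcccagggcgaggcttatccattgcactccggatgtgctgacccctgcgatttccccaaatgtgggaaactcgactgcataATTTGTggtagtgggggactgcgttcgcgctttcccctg
RNVU1-9, chr1:147511004-147511167, minus strand: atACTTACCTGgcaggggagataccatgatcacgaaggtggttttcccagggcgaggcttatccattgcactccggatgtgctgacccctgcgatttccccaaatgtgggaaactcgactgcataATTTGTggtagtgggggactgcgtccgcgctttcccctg
RNVU1-10, chr1:147834502-147834665, minus strand: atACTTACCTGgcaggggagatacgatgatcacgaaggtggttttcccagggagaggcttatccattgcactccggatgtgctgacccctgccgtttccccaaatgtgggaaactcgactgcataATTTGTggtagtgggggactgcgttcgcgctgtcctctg
RNVU1-11, chr1:147860642-147860803, minus strand: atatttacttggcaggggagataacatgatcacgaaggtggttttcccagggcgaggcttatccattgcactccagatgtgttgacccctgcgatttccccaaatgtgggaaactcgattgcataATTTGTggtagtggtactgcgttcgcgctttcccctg
RNVU1-15, chr1:148604908-148605072, minus strand: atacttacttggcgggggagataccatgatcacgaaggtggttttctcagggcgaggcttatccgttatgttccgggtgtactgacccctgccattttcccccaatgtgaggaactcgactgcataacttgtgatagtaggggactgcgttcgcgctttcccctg
RNVU1-16, chr1:148766938-148767102, minus strand: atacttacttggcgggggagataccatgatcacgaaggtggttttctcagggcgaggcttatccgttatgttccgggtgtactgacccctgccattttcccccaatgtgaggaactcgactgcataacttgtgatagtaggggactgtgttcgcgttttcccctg
RNU2-2P, chr11:62609091-62609281, minus strand: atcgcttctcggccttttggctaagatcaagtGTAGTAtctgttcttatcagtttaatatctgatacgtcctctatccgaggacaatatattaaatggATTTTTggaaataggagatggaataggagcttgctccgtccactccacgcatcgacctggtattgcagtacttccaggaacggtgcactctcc
RNU4-2, chr12:120729566-120729706, minus strand: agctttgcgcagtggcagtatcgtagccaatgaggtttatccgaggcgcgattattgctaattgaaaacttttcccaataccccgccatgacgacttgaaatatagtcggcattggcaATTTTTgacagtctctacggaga
RNU4-1, chr12:120730900-120731040, minus strand: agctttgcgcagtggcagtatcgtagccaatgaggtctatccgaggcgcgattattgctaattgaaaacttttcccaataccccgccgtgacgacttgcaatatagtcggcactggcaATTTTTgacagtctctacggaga

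Counted from 1 at the start of the gene, RNVU1-9 differs from RNU1-1 by T150C alone, and RNVU1-10 differs by C25G, C53A, G93C, A94G, T157G and C161T. RNVU1-16 differs from RNVU1-15 by C148T and C156T. RNU4-1 differs from RNU4-2 by T37C, A88G, A99C and T113C. Of the 117 members, 28 share their whole sequence with at least 1 other, so there are 98 distinct sequences. RNU1-1 is identical to RNU1-2, RNU1-3, RNU1-4, RNU1-27P, RNU1-28P and RNVU1-18, a set of 7. A set of 7 identical U6 copies includes RNU6-1, RNU6-2, RNU6-3P and RNU6-9. A fragment that fits several places was divided among them by the authors' counting, so copies of a class are not independent measurements and the sum over a class rests on fewer assumptions than a copy.

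FOXA1, the transcription factor that the siRNA targets, checks the labels. It stood at 463, 487 and 523 CPM with NSI and at 86.9, 74.0 and 79.5 CPM with siFOXA1. No siFOXA1 library reached an NSI library, and the log2 fold change was −2.60 ± 0.095 (SE). The VCaP libraries held 48187047 to 59839211 counts. All 11 markers of prostate luminal cancer cells fixed for the check were counted, and their sum ranged from 6520 to 6948 CPM with NSI and from 4660 to 5764 CPM with siFOXA1. Of 9 markers of blood, endothelial, fibroblast and basal cells, 8 were matched, 6 of them were under 1 CPM, and their sum ranged from 5.82 to 8.77 CPM with NSI and from 2.53 to 5.06 CPM with siFOXA1. Protein-coding genes took 68.3% to 70.5% of the counts in NSI and 61.4% to 65.3% in siFOXA1, and the mitochondrial share was 3.02% to 3.29% in NSI and 4.04% to 4.69% in siFOXA1. These shares moved with the groups, and their part in the snRNA values was not tested.

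U1 dominated the snRNA counts. The 75 U1 members summed to 55601 CPM on average and held 86.7% of all counts of the members, followed by U2 with 5050 CPM from 10 members, U4 with 2392 CPM from 3 members and U5 with 988 CPM from 6 members. U6 reached 74.1 CPM from 20 members, RNU6ATAC 35.3 CPM, RNU4ATAC 18.7 CPM and RNU7-1 1.17 CPM. Per length, as summed CPM per kilobase, the order was the same, from 339106 for U1, 26441 for U2, 16964 for U4 and 8467 for U5 to 695 for U6, 280 for U6atac, 147 for U4atac and 18.6 for U7. In each of the 6 libraries every one of these class sums was above the next class in the order. These sums hold only what was counted to the members, so their order need not be that of the RNAs in the cell. All 10 U2 members have names that end in P, and RNU2-2P shares bases with WDR74. The U6 members held 63.1% of the counts of all U6 rows. The rows of RNU11 and RNU12, the remaining RNAs of the minor spliceosome, carry the gene type lincRNA and so fall outside the rule. They were looked up after the other values were seen: RNU11 stood at 124, 123 and 161 CPM with NSI and 119, 117 and 154 CPM with siFOXA1, and RNU12 at 121, 112 and 127 CPM with NSI and 129, 118 and 136 CPM with siFOXA1. Neither passed the test.

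**Figure D1:**
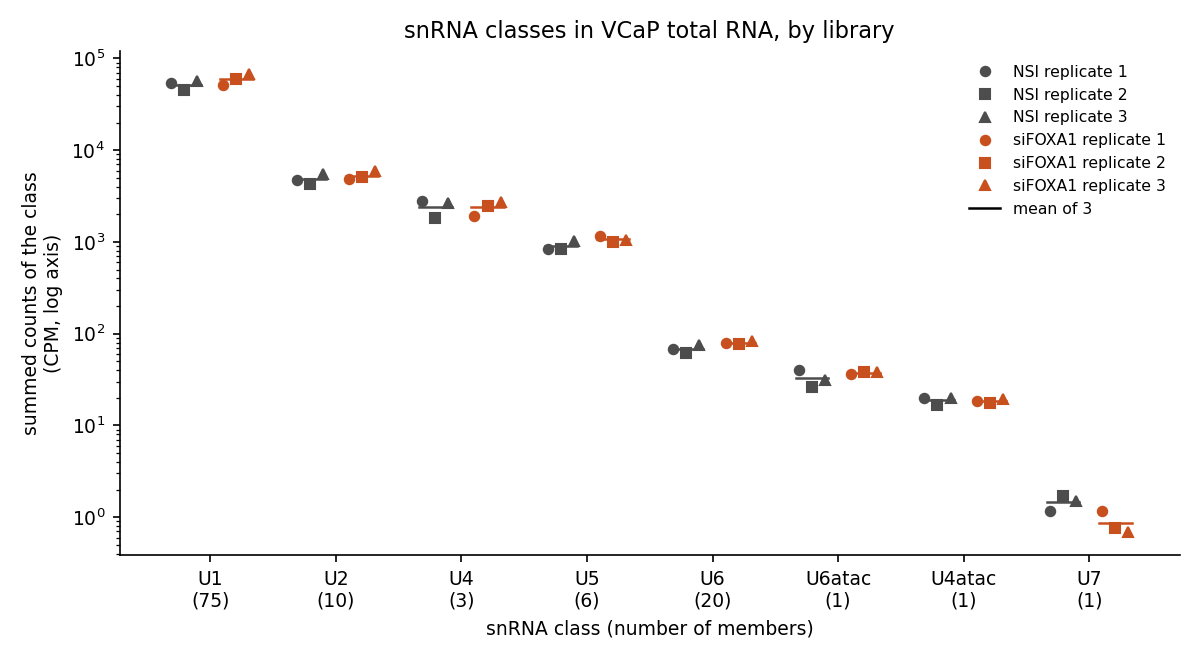
Summed counts of the members of each snRNA class in CPM on a log axis, by class and VCaP library. Points are libraries and short lines are the means of 3. U1 lies near 55601 CPM and U7 near 1.17 CPM. The groups overlap in each class except U6, where every siFOXA1 library is above every NSI library, and U7, where every siFOXA1 library is below.

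Most of the snRNA counts were assigned to few copies, and the members divided into a small group of high copies and a long tail. Near-identical copies hold divided fragments, so these counts do not show which of them made the RNA. A mean of at least 1000 CPM was found for 11 members, 100 to 1000 CPM for 10, 10 to 100 CPM for 23 and 1 to 10 CPM for 73. Names that end in P, the mark of a pseudogene, were carried by 83 members. The 9 U1 copies at least 99% identical to RNU1-1 held 95.2% of the U1 counts, with means from 5003 CPM for RNU1-27P to 7110 CPM for RNU1-1. The 21 U1 copies with an identity of 90% to 99% had a median of 13.04 CPM, the 31 with 80% to 90% a median of 3.11 CPM and the 14 below 80% a median of 1.90 CPM. The letters ACTTACCTG were found in 30 of 75 U1 members, which held 97.0% of the U1 counts. The 45 members without them ranged from 1.00 to 884 CPM. Among the 67 U1 rows below the floor, 25.4% hold these letters. These levels chose the members and are given as a description.

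**Figure D2:**
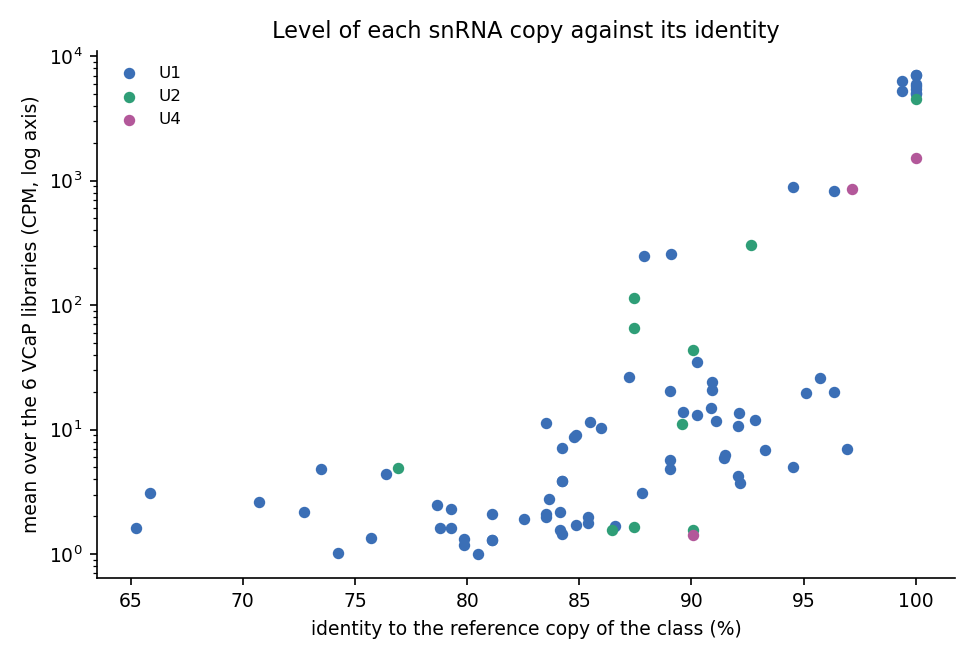
Mean level of each U1, U2 and U4 member over the 6 VCaP libraries, in CPM on a log axis, against its identity in percent to the reference copy of its class (RNU1-1, RNU2-2P and RNU4-2). Each point is a copy. The 9 U1 copies of at least 99% identity lie at the top right, from 5003 to 7110 CPM, and the 14 below 80% have a median of 1.90 CPM.

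Identical letters did not give equal counts. RNVU1-10 and RNVU1-1 share their whole sequence, but the counts of RNVU1-10 were 41.3 times those of RNVU1-1 on average, with ratios from 16.4 to 72.7 over the 6 libraries. RNVU1-11 and RNU1-13P are also identical, and their ratio ranged from 74.1 to 282. Among the 7 identical copies of RNU1-1 the means spanned 5003 to 7110 CPM, and the ratio of RNU1-1 to RNU1-27P ranged from 1.12 to 1.53. The identical pair RNVU1-9 and RNVU1-7 had ratios from 1.07 to 1.27.

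All members together took up 6.19%, 5.22% and 6.53% of the NSI libraries and 5.96%, 6.79% and 7.80% of the siFOXA1 libraries. The groups overlapped: siFOXA1 replicate 1 was below NSI replicates 1 and 3. The means were 5.98% ± 0.68 (SD, n = 3) and 6.85% ± 0.92 (SD, n = 3), and the difference of 0.87 percentage points had an exact permutation p of 0.3, two-sided, where 3 against 3 libraries allow no p below 0.1. Against the counts of protein-coding genes alone the members came to 8.94%, 7.41% and 9.57% in NSI and 9.13%, 10.6% and 12.7% in siFOXA1, with an exact permutation p of 0.2. The copies shared much of their order over the libraries. NSI replicate 2 was the lowest of the 6 libraries for 94 of 117 members, and siFOXA1 replicate 3 was the highest for 80. Of the 75 U1 members, 64 were lowest in NSI replicate 2 and 62 were highest in siFOXA1 replicate 3. Without NSI replicate 2 the difference in the share was 0.49 percentage points, and without siFOXA1 replicate 3 it was 0.40.

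By class, no spliceosomal snRNA passed the test, and of the 8 class sums only U7 did, while 3, U5, U6 and U7, had an unadjusted p under 0.05. The U7 class is RNU7-1 alone, which reached 1 CPM only through the NSI group where it is high, so its call supports nothing beyond that choice. The U1 sum was 53377, 45208 and 56042 CPM with NSI and 51592, 59229 and 68158 CPM with siFOXA1. These groups overlapped, and the log2 fold change was 0.23 ± 0.16 (SE) with an adjusted p of 0.28 from edgeR's quasi-likelihood test. The U2 sum was 4762, 4265 and 5457 CPM with NSI and 4834, 5082 and 5901 CPM with siFOXA1, with a log2 fold change of 0.14 ± 0.14 (SE) and an adjusted p of 0.44 from the same edgeR fit. The U4 sum was 2767, 1807 and 2643 CPM with NSI and 1919, 2485 and 2730 CPM with siFOXA1, and the range of NSI covered that of siFOXA1. Its log2 fold change was −0.0037 ± 0.19 (SE), with an adjusted p of 0.99 in edgeR.

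The U5 sum was 843, 844 and 1028 CPM with NSI and 1152, 1011 and 1052 CPM with siFOXA1, with only siFOXA1 replicate 2 below the highest NSI library. Its log2 fold change was 0.25 ± 0.11 (SE), with an adjusted p of 0.090 in edgeR. The U6 sum was 68.9, 61.8 and 74.8 CPM with NSI and 79.1, 77.7 and 82.4 CPM with siFOXA1. These groups did not overlap, and the log2 fold change of 0.23 ± 0.097 (SE) had an adjusted p of 0.077 in edgeR. U5 and U6 passed the threshold when no filter on low counts was applied, with upper-quartile factors and without NSI replicate 3. Both also passed with replicate number as a block, and both missed the threshold with DESeq2. U6 also passed with library size alone, with TMM factors from protein-coding genes and with all 1333 U6 rows summed. Of all rows in this fit, 46.2% passed in either direction.

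Of the RNAs particular to the minor spliceosome, U6atac and U4atac have 1 member each. RNU6ATAC stood at 40.4, 26.5 and 31.7 CPM with NSI and at 36.6, 38.1 and 38.5 CPM with siFOXA1, with a log2 fold change of 0.21 ± 0.14 (SE) and an adjusted p of 0.23 in edgeR. RNU4ATAC stood at 19.9, 16.6 and 20.1 CPM with NSI and at 18.5, 17.5 and 19.7 CPM with siFOXA1. Its log2 fold change was −0.014 ± 0.11 (SE), with an adjusted p of 0.93 in edgeR. Both RNAs varied within the NSI group by more than the means of the groups differed.

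Copy by copy, 9 of 117 members (7.69%) passed an adjusted p of 0.05 in edgeR, 3 of them higher and 6 lower in siFOXA1, while 45.8% of all 22925 genes tested passed, 22.5% higher and 23.3% lower. All 117 passed the filter on low counts. Of the 9 called, RNU4-46P reached 1 CPM only through siFOXA1 and RNU7-1 and RNU6-914P only through NSI, so the rule favoured their directions. At an unadjusted p under 0.05 there were 32 members (27.4%), against 52.9% of all genes. The members' fold changes were less precise: their median standard error was 0.22 on the log2 scale, against 0.093 for genes of at least 1 CPM. The median log2 fold change of the members was 0.31 and that of all genes tested was 0.023. A positive value was found for 99 members (84.6%, against 52.2% of all genes) and a negative value for 18. The members are not separate measurements, since copies share divided fragments and 94 of the 117 were lowest in NSI replicate 2. Every siFOXA1 library was above every NSI library for 18 members (15.4%, against 25.8% of all genes) and below for 9 (7.69%, against 28.6%). Each library moved these counts. Without NSI replicate 1 the calls were 5 higher and 4 lower, without NSI replicate 2 they were 1 and 6, and without NSI replicate 3 they were 20 and 3. Without siFOXA1 replicate 1 they were 25 higher and 11 lower, and without siFOXA1 replicate 2 or replicate 3 they were 1 and 3. The median was 0.17 without NSI replicate 2, 0.19 without siFOXA1 replicate 3 and 0.43 without siFOXA1 replicate 1. With no filter on low counts 45 members were higher and 11 lower. DESeq2 called 10 higher and 6 lower, and upper-quartile factors gave 15 higher and 6 lower. The median of all genes tested moved as well, to 0.071 with upper-quartile factors, 0.042 with no filter and 0.015 with DESeq2. The shares of all genes called in these settings and without single libraries are not given here.

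**Figure D3:**
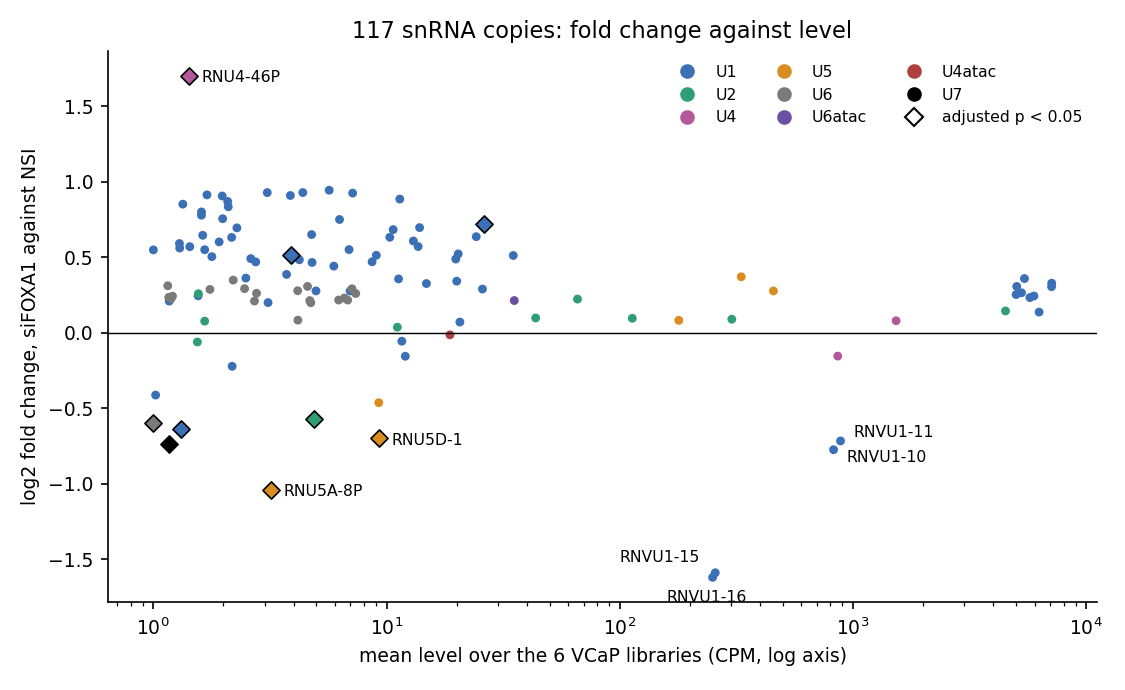
Log2 fold change of siFOXA1 against NSI of each of the 117 members against its mean level over the 6 VCaP libraries in CPM on a log axis. Colours are classes and black-edged diamonds are members with an adjusted p under 0.05 in edgeR. The called members have at most 26.2 CPM, and the 4 RNVU1 copies labelled at the lower right, down to −1.62, were not called.

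None of the 21 members of at least 100 CPM was called, where 45.8% of all genes tested were. The log2 fold changes of these 21 ran from −1.62 to 0.37 with a median of 0.14. An unadjusted p under 0.05 was found for 6 (28.6%, against 52.9% of all genes). DESeq2 called 4 of these 21, all higher: RNVU1-18, RNU1-28P, RNU5A-1 and RNU5B-1. The share of all genes that DESeq2 called is not given here. The 9 U1 copies above 1000 CPM all had positive values, between 0.14 and 0.36. RNU1-1, the highest of them, stood at 6945, 4744 and 7309 CPM with NSI and at 6560, 8122 and 8982 CPM with siFOXA1, so the groups overlapped, and its log2 fold change was 0.33 ± 0.20 (SE) with an adjusted p of 0.20 in edgeR. RNVU1-18, identical to it, stood at 5072, 4288 and 5013 CPM with NSI and at 5292, 5755 and 7174 CPM with siFOXA1. In RNVU1-18 the groups did not overlap, and the adjusted p was 0.076 in edgeR.

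A wide spread within the siFOXA1 group was found in 4 copies of the variant U1 group on chromosome 1, which were singled out after their values were seen. How the fragments that fit several places fell among these copies was not tested, and the limit on places reported per fragment is not given in the sources used here. RNVU1-15 stood at 428, 334 and 390 CPM with NSI and at 338, 22.7 and 26.7 CPM with siFOXA1. RNVU1-16 stood at 420, 325 and 383 CPM with NSI and at 332, 17.8 and 22.1 CPM with siFOXA1. In both, siFOXA1 replicate 1 lay within the range of NSI and siFOXA1 replicates 2 and 3 lay far below it. RNVU1-10 stood at 1127, 912 and 1087 CPM with NSI and at 1011, 367 and 449 CPM with siFOXA1, and RNVU1-11 at 1181, 964 and 1154 CPM with NSI and at 1068, 433 and 504 CPM with siFOXA1. The same libraries were low in these copies. The log2 fold changes were −1.59 ± 0.85 (SE) for RNVU1-15, −1.62 ± 0.91 for RNVU1-16, −0.77 ± 0.31 for RNVU1-10 and −0.72 ± 0.28 for RNVU1-11. None passed: the adjusted p-values in edgeR were 0.16, 0.18, 0.069 and 0.064.

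Without siFOXA1 replicate 1 the log2 fold changes were −3.93, −4.21, −1.33 and −1.20, and all 4 passed, with adjusted p-values in edgeR of 1.3e-06, 1.4e-06, 0.00020 and 0.00024. All 4 also passed with no filter on low counts, where the adjusted p-values of RNVU1-15 and RNVU1-16 were 0.0034 and 0.0051. DESeq2 gave RNVU1-15 and RNVU1-16 no adjusted p. Together the 4 copies made up 5.91%, 5.61% and 5.38% of U1 with NSI and 5.33%, 1.42% and 1.47% with siFOXA1. The 7 copies identical to RNU1-1 made up 73.0%, 70.9% and 73.6% with NSI and 72.4%, 76.9% and 77.9% with siFOXA1. RNVU1-15 and RNVU1-16 hold neither ACTTACCTG nor ATTTNT, as their sequences above show, and RNVU1-11 lacks the former. RNVU1-10 holds both. RNVU1-1 and RNU1-13P, the identical partners of RNVU1-10 and RNVU1-11, did not share the pattern: RNVU1-1 stood at 21.7, 12.5 and 19.0 CPM with NSI and at 17.4, 22.0 and 27.4 CPM with siFOXA1, and RNU1-13P ranged from 3.42 to 6.35 CPM over the 6 libraries.

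**Figure D4:**
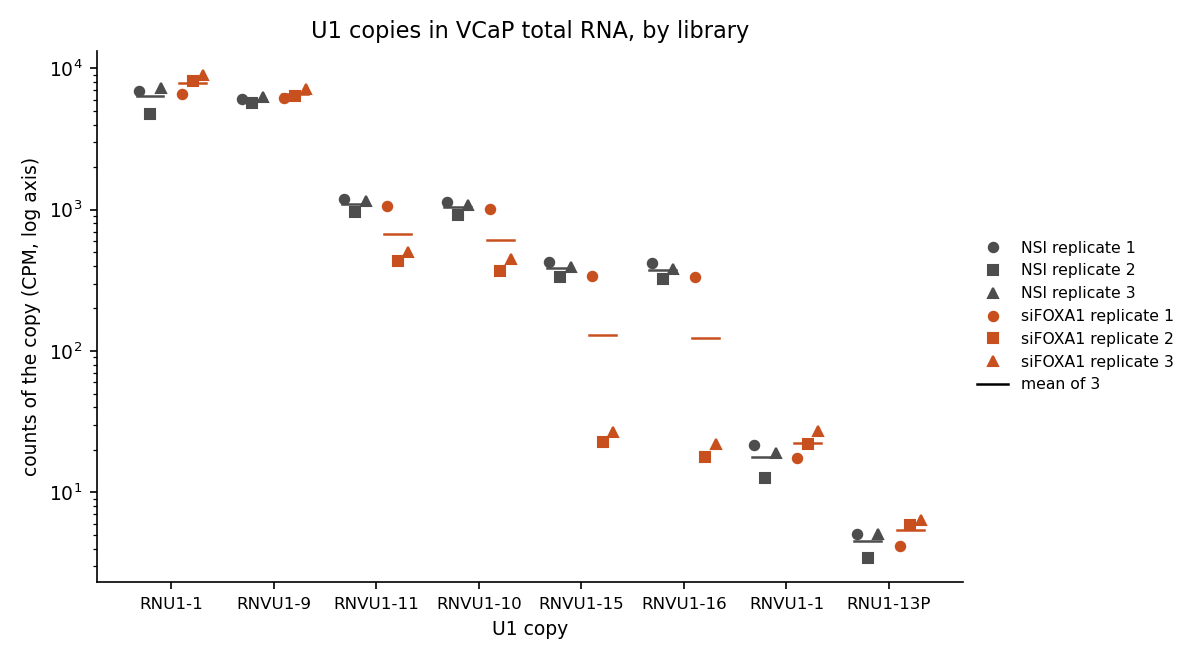
Counts of 8 U1 copies in CPM on a log axis in each VCaP library, with points for libraries and short lines for the means of 3. In RNVU1-10, RNVU1-11, RNVU1-15 and RNVU1-16 the first siFOXA1 replicate stands with the NSI libraries and the other siFOXA1 replicates stand lower, at 17.8 and 22.1 CPM in RNVU1-16, while RNU1-1 and RNVU1-9 show no such split.

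Among the remaining U1 members, 2 were called higher and 1 lower. No other U1 member was called, so the calls came to 4% of the 75 U1 members, against 45.8% of all genes. The row named U1 (ENSG00000272020.1, chr3:125879126-125879288), in an intron of ALDH1L1, rose from 29.5, 12.5 and 17.8 CPM with NSI to 28.01, 33.6 and 36.0 CPM with siFOXA1. Its groups overlapped, and its log2 fold change was 0.72 ± 0.26 (SE) with an adjusted p of 0.047 in edgeR. RNU1-139P stood at 3.79, 2.46 and 3.40 CPM with NSI and rose to 3.998, 4.63 and 5.00 CPM with siFOXA1, without overlap, by a log2 fold change of 0.51 ± 0.18 (SE) with an adjusted p of 0.044 in edgeR. RNVU1-20 stood at 1.96, 1.33 and 1.499 CPM with NSI and fell to 1.22, 1.06 and 0.79 CPM with siFOXA1, with a log2 fold change of −0.64 ± 0.20 (SE) and an adjusted p of 0.029 in edgeR. Without NSI replicate 2 or 3 or siFOXA1 replicate 2 or 3 neither of the higher rows passed, with adjusted p-values from 0.051 to 0.12 in edgeR, and the ALDH1L1 row missed the threshold with DESeq2. RNVU1-20 did not pass without NSI replicate 1 or 3 or siFOXA1 replicate 2 or 3, with values from 0.053 to 0.10. Of the 55 U1 members with a name that ends in P, 53 had a positive value (96.4%, against 52.2% of all genes), with a median of 0.57. Of these 55, 1 was called (1.82%, against 45.8% of all genes). They are not separate measurements: of the 75 U1 members 64 were lowest in NSI replicate 2 and 62 highest in siFOXA1 replicate 3.

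The U5 members differed in sign, and the lower copies were of low level. RNU5A-1, the highest, stood at 397, 372 and 472 CPM with NSI and at 529, 488 and 477 CPM with siFOXA1, without overlap, with a log2 fold change of 0.28 ± 0.11 (SE) and an adjusted p of 0.067 in edgeR. RNU5B-1 and RNU5E-1 had log2 fold changes of 0.37 and 0.082 and were not called. RNU5D-1 stood at 11.2, 12.1 and 11.3 CPM with NSI and fell to 9.29, 6.86 and 5.08 CPM with siFOXA1. Its groups did not overlap, and the log2 fold change was −0.70 ± 0.16 (SE) with an adjusted p of 0.0068 in edgeR. RNU5A-8P, in an intron of HHAT on the other strand, stood at 4.70, 4.46 and 3.77 CPM with NSI and fell to 2.66, 2.14 and 1.46 CPM with siFOXA1, without overlap. Its log2 fold change was −1.04 ± 0.18 (SE), with an adjusted p of 0.0013 in edgeR, and it passed in all 15 settings tried. HHAT itself had a log2 fold change of 0.12 with an adjusted p of 0.24 in edgeR. RNU5E-4P, at 10.8, 10.98 and 10.5 CPM with NSI and 9.95, 8.24 and 5.15 CPM with siFOXA1, had no overlap either but was not called, with an adjusted p of 0.059 in edgeR.

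**Figure D5:**
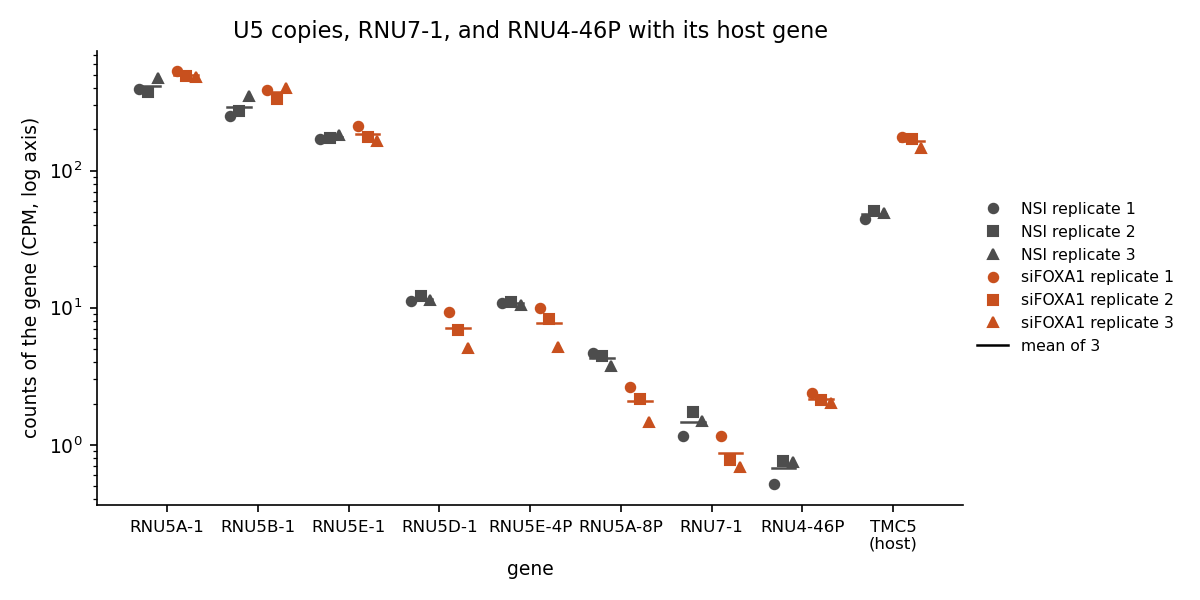
Counts of the 6 U5 members, RNU7-1, RNU4-46P and TMC5, the host gene of RNU4-46P, in CPM on a log axis in each VCaP library, with short lines for the means of 3. RNU5D-1, RNU5E-4P and RNU5A-8P lie lower in every siFOXA1 library than in any NSI library, and RNU4-46P and TMC5 lie higher.

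Of the U4 members, the copies RNU4-2 and RNU4-1 carried almost all counts and neither was called. RNU4-2 stood at 1708, 1124 and 1653 CPM with NSI and at 1261, 1617 and 1818 CPM with siFOXA1, and RNU4-1 at 1058, 682 and 989 CPM with NSI and at 656, 866 and 909 CPM with siFOXA1. Both had their lowest values in NSI replicate 2 and siFOXA1 replicate 1, and the log2 fold changes were 0.079 ± 0.20 (SE) and −0.15 ± 0.19 (SE), with adjusted p-values of 0.77 and 0.54 in edgeR. The ratio of RNU4-2 to RNU4-1 was 1.61, 1.65 and 1.67 in NSI and 1.92, 1.87 and 2.00 in siFOXA1, so the ratio was higher in each siFOXA1 library. This ratio was chosen after the values were seen and was not tested.

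RNU4-46P lies on an exon of TMC5 on the same strand (chr16:19509932-19510069). It stood at 0.52, 0.76 and 0.75 CPM with NSI and rose to 2.37, 2.13 and 2.02 CPM with siFOXA1, by a log2 fold change of 1.70 ± 0.18 (SE) with an adjusted p of 5.9e-05 in edgeR. TMC5 stood at 44.2, 51.1 and 49.0 CPM with NSI and rose to 174.7, 171.2 and 146.8 CPM with siFOXA1, by a log2 fold change of 1.78 ± 0.079 (SE). Fragments of TMC5 over this exon were divided between both rows, so the count of RNU4-46P cannot be told apart from that of its host. RNU4-46P passed in all 15 settings, but its mean was 0.67 CPM with NSI and 2.17 CPM with siFOXA1, so it is a member only through the group where it is high.

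Such overlap concerned 12 members on same-strand exons, 33 in same-strand introns, 11 in introns and 1 in an exon on the other strand, and 60 lay in no other gene. In the 8 members on same-strand exons whose host was tested, the member and its host had the same sign in 7. In the 22 members in same-strand introns whose host was tested, the sign was the same in 10. RNU6-914P, on an exon of NIPAL2, stood at 1.17, 1.18 and 1.26 CPM with NSI and fell to 1.00, 0.74 and 0.64 CPM with siFOXA1, with a log2 fold change of −0.60 ± 0.19 (SE) and an adjusted p of 0.029 in edgeR. It did not pass with DESeq2, or without NSI replicate 1 or 3 or siFOXA1 replicate 2 or 3, where the adjusted p-values ranged from 0.051 to 0.099. Its means were 1.21 CPM with NSI and 0.795 CPM with siFOXA1, so it is a member only through NSI. NIPAL2 fell as well, by a log2 fold change of −0.63 ± 0.065 (SE). RNU7-1, which shares bases with an exon of C12orf57, stood at 1.17, 1.73 and 1.504 CPM with NSI and fell to 1.16, 0.77 and 0.68 CPM with siFOXA1. Its log2 fold change was −0.73 ± 0.22 (SE), with an adjusted p of 0.024 in edgeR, and it did not pass without NSI replicate 2 or 3 or without siFOXA1 replicate 2 or 3, with adjusted p-values from 0.061 to 0.087. Its means were 1.47 CPM with NSI and 0.873 CPM with siFOXA1, so it too is a member only through NSI. C12orf57 had a log2 fold change of −0.30 ± 0.080 (SE).

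RNU2-2P, which held 89.2% of the U2 counts, shares bases with an exon of WDR74. It stood at 4285, 3797 and 4817 CPM with NSI and at 4306, 4547 and 5275 CPM with siFOXA1. The groups overlapped, and the log2 fold change was 0.14 ± 0.14 (SE) with an adjusted p of 0.43 in edgeR. WDR74 stood at nearly the same values, 4308, 3818 and 4839 CPM with NSI and 4323, 4566 and 5292 CPM with siFOXA1. Fragments over the shared bases were divided between the rows, so their counts cannot be told apart. The U2 sum holds only the part that was counted to RNU2-2P. RNU2-63P, a copy of 76.9% identity to RNU2-2P, stood at 6.47, 6.10 and 4.96 CPM with NSI and fell to 4.80, 3.90 and 3.04 CPM with siFOXA1, by a log2 fold change of −0.57 ± 0.15 (SE) with an adjusted p of 0.013 in edgeR. The other 9 U2 members were not called, with values from −0.061 to 0.26.

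The U6 members had like and small values. RNU6-3P, the highest, stood at 6.68, 6.15 and 7.41 CPM with NSI and at 8.07, 7.54 and 8.43 CPM with siFOXA1. Its groups did not overlap, and its log2 fold change was 0.26 ± 0.12 (SE) with an adjusted p of 0.099 in edgeR. Of the 20 U6 members, 19 had a positive value (95.0%, against 52.2% of all genes). RNU6-914P was the 1 call (5%, against 45.8% of all genes). In 11 of the 20 (55.0%, against 25.8% of all genes) every siFOXA1 library was above every NSI library. These are not separate measurements: 7 of the 20 share 1 sequence and its divided fragments, and 18 of the 20 were lowest in NSI replicate 2. Apart from RNU6-914P the values lay between 0.0835 and 0.35. The members held 63.1% of the counts of all 1333 U6 rows, so the remainder lay in rows under 1 CPM, whereas the members held 99.96% of the counts of all 142 U1 rows.

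At the edge of the rule, the members nearest above 1 CPM were RNU6-914P, RNU1-33P and RNU1-120P, at 1.00, 1.00 and 1.02 CPM. The rows nearest below were RNU1-91P, RNU1-60P and RNU2-57P, at 0.998, 0.959 and 0.939 CPM. A mean of at least 1 CPM in both groups was found for 111 members, in NSI only for 3 (RNU7-1, RNU1-120P and RNU6-914P) and in siFOXA1 only for 3 (RNU4-46P, RNU1-51P and RNU1-33P). Of the 1912 snRNA rows, 803 were listed at 0 in all VCaP libraries.

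Letters known from promoters were searched upstream of the members in GRCh37. The octamer ATGCAAAT, the site of the POU2F1 family in snRNA promoters, was sought on both strands in the 300 bases before the start. It was found for 17 of 117 members (14.5%), for 2.33% of all rows of the table and for 2.95% of the 1795 snRNA rows below 1 CPM. It preceded 5 of 6 U5 members, 5 of 20 U6 members, 3 of 10 U2 members, RNU4-2, RNU4ATAC and RNU7-1, but only 1 of 75 U1 members. Of the U5 members that were lower in every siFOXA1 library than in any NSI library, RNU5D-1 was without it. RNU5A-8P and RNU5E-4P had it. The letters TATA on the transcript strand 40 to 15 bases before the start were found for 16 members (13.7%), for 6.16% of all rows and for 14.99% of the snRNA rows below 1 CPM, so the members did not hold them more often than other snRNA rows. These matches are descriptions of letters and not of binding.

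The genes that make and assemble snRNAs were taken as 66 genes in 5 lists, all of which were tested. Higher in siFOXA1 were 7 and lower were 22 (43.9% called, against 45.8% of all genes), with a median log2 fold change of −0.094. Of all genes tested 22.5% were higher and 23.3% lower, which is the background for the counts of each list. Of the 19 promoter factors, 5 rose and 5 fell. ELL, a subunit of the little elongation complex, stood at 14.6, 14.8 and 13 CPM with NSI and rose to 21.7, 22.0 and 17.8 CPM with siFOXA1. SNAPC1 and SNAPC2 are subunits of the complex that binds the snRNA promoter element. SNAPC1 rose from 5.11, 5.50 and 4.85 CPM to 7.36, 6.87 and 6.86 CPM, and SNAPC2 fell from 7.45, 5.60 and 6.32 CPM to 2.92, 2.99 and 3.01 CPM. None of these groups overlapped, and the log2 fold changes were 0.55 ± 0.079 (SE), 0.47 ± 0.087 (SE) and −1.11 ± 0.13 (SE). GTF2B, a general initiation factor, rose by 0.29 ± 0.066 (SE) and GTF2F1, another, fell by 0.53 ± 0.061 (SE) on the log2 scale.

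Of the 15 Integrator genes, whose complex cuts the end of snRNA precursors, 2 rose and 3 fell. INTS3 stood at 59.4, 61.5 and 59.7 CPM with NSI and rose to 67.9, 72.8 and 68.4 CPM with siFOXA1, a log2 fold change of 0.23 ± 0.058 (SE). In the other lists no gene rose. Of 8 genes of cap binding, export and import 3 fell, and NCBP1, the large cap-binding subunit, went from 49.9, 52.4 and 48.5 CPM to 36.9, 35.7 and 36.9 CPM, a log2 fold change of −0.45 ± 0.055 (SE). Of 14 genes of the SMN-Gemin and Sm assembly 7 fell, and WDR77, the partner of the PRMT5 methyltransferase, went from 40.3, 36.9 and 36.1 CPM to 23.6, 23.9 and 22.5 CPM, a log2 fold change of −0.68 ± 0.062 (SE). SMN1 and SMN2, whose near-identical copies share fragments, were not called. Of 10 genes of end trimming and U6 maturation 4 fell. The adjusted p-values of the 8 genes named here with a fold change ranged from 2.4e-05 to 0.011 in edgeR.

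Other small RNAs without a poly(A) tail served for comparison. RN7SL1 and RN7SL2, the RNAs of the signal recognition particle, had log2 fold changes of 0.26 ± 0.13 (SE) and 0.25 ± 0.12 (SE). In both, every siFOXA1 library was above every NSI library, as in 25.8% of all genes tested. RN7SK, which holds back the elongation factor P-TEFb, had 0.16 ± 0.12 (SE), RPPH1, the RNA of ribonuclease P, 0.044 ± 0.12 (SE), and RMRP, its relative, 0.015 ± 0.091 (SE). None of these was called in edgeR, and DESeq2 called 2, RN7SL1 and RN7SL2, higher. What share of all genes DESeq2 called is not given here. Of 187 small nucleolar and Cajal body RNA rows of at least 1 CPM, 15 were higher and 13 lower (14.97% called, against 45.8% of all genes), with a median log2 fold change of 0.12. The median standard error of these rows was 0.16, between that of the members and that of all genes of at least 1 CPM.

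In the polyadenylated RNA of PC3 the members were nearly absent. The U1 sum was 40.7, 6.70 and 6.60 CPM with NSI and 5.15, 12.1 and 4.13 CPM with siFOXA1, with NSI replicate 1 far above the other libraries. U2 ranged from 0.44 to 2.19 CPM, U5 from 0.11 to 0.45 CPM and U6 from 5.03 to 7.92 CPM. The PC3 log2 fold changes ran from −1.44 ± 0.73 (SE) for U1 to 0.30 ± 0.34 (SE) for U7, and none of the 8 classes passed in edgeR, where 27.7% of all rows did. At an unadjusted p under 0.05 there was none either. Without NSI replicate 1 the U1 value was 0.034. The difference between the effects in VCaP and PC3 was 1.66 ± 0.78 (SE) for U1, with an adjusted p of 0.15 from the interaction term in edgeR, and none of the 8 classes passed, where 22.3% of all rows did. U6 and U7 had an unadjusted p under 0.05 in this term.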

How the data were processed

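The deposited values were expected counts per gene for 60106 rows, 1 table for each of 12 libraries. The estimated counts were made by the authors with featureCounts, per the file headers, by summing exons by gene of GENCODE v28lift37 basic on GRCh37. Fragments that fitted several places or genes were divided, both ends had to map, and VCaP was counted on the reverse strand and PC3 without strand. The submitters' processing notes name STAR 2.7.3a and Subread 2.0.0. The counts were not normalized.

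CPM used library totals. Counts were rounded and fitted over all rows with edgeR 4.0.16 in R 4.3.3 (TMM factors of 0.959 to 1.04, filterByExpr, quasi-likelihood test of siFOXA1 against NSI, Benjamini-Hochberg over all genes, call under 0.05). The standard error is the log2 fold change over the root of F. Class sums replaced the members by 1 row per class. The edgeR fit was also checked on simulated counts with known fold changes. Shares were set against each other by two-sided exact permutation. Sequences were read from GRCh37, whose 37 chromosomes matched the tables, and identity came from global alignment in Biopython 1.88. DESeq2 1.42.0, other scaling factors, filters and left-out libraries were alternatives.

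Named members were the highest of each class, all members of classes of up to 4, the 5 largest calls in each direction without overlap, and those nearest the floor. Of the biogenesis genes, the 4 with the smallest adjusted p in each direction were named. RN7SK, RN7SL1, RN7SL2, RMRP, RPPH1, FOXA1 and same-strand exon hosts were added. Names outside this rule, such as the remaining called members, RNVU1-10, RNVU1-11, RNVU1-15, RNVU1-16, RNVU1-18, HHAT, SMN1 and SMN2, were chosen after their values were seen. Members, lists and tests were chosen with earlier results of these data known. Replicates of a group differed beyond sampling noise (chi-square per degree of freedom from 11.0 to 40.8 in VCaP and from 22.4 to 158.5 in PC3). Of the nonzero member values in VCaP, 88.0% to 93.2% were not whole. Sequences of U5 and U6 copies are not reported here.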

Additional observations from a re-analysis of the deposited data

How the results depend on the processing

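The count of members called was 3 higher and 6 lower. It was 10 higher with DESeq2, 6 with library size alone, 15 with upper-quartile factors and 9 with TMM from protein-coding genes. With no filter on low counts it was 45 higher and 11 lower, and with a minimum log2 fold change of 0.5 it was 1 higher and 1 lower. A floor of 0.5 CPM gave 8 higher, and a floor of 5 CPM gave 1 higher and 1 lower. Leaving out a library gave 1 to 25 higher and 3 to 11 lower. Classes called higher, 0 in the report, were 1 with library size alone, 2 with upper-quartile factors, 1 with TMM from protein-coding genes, 2 with no filter, 1 with all snRNA rows of a class, and 0 to 2 with a library left out. Classes called lower, 1 in the report (U7), were 0 with the minimum fold change and with all snRNA rows of a class, and 0 to 1 with a library left out. The shares of all genes called in these settings are not given here, and the cause was not tested.

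The direction of U4 and U4atac, both near 0, turned with the scaling: U4 was 0.049 with upper-quartile factors and 0.028 with TMM from protein-coding genes, and the U4atac sum was 0.037 and 0.017 (RNU4ATAC as a member 0.035 and 0.017) and 0.0062 with all snRNA rows. Leaving out a library gave −0.20 to 0.14 for U4, −0.13 to 0.064 for U4atac and −0.13 to 0.063 for RNU4ATAC, and −0.12 to 0.22 for RNU4-2. U7 was 0.074 with all snRNA rows of its class, of which RNU7-1 held 20.0%. The U1 value in PC3 ranged from −2.06 to 0.034 with a library left out. PC3 classes called lower, 0 in the report, were 2 with no filter and 0 to 1 with a library left out. Classes that differed between the lines, 0 in the report, were 3 higher with no filter, and 0 to 2 higher and 0 to 1 lower with a library left out. Biogenesis genes called were 0 higher and 2 lower with the minimum fold change, and 3 to 7 higher and 17 to 24 lower with a library left out. Other small RNAs called higher were 24 with no filter and 0 (2 lower) with the minimum fold change, and 4 to 46 with a library left out. The difference in the members' share kept its sign in all 8 alternatives. As a share of the library it ranged from 0.40 to 1.32 percentage points with a library left out. Taken against the counts of protein-coding genes, a smaller denominator, it was 2.17 percentage points.

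The titles do not say what a replicate number shares. Same-numbered VCaP libraries deviated from their group means with correlations of 0.064, 0.036 and 0.28 over all genes. With the other numbers the mean correlations were −0.017, −0.0094 and −0.16, and only number 3 matched best with its own number. Over the members the same-number correlations were −0.43, −0.18 and 0.61. So few libraries cannot decide whether the numbers pair them. With the replicate block, members called were 39 higher and 11 lower, 2 classes were called higher (U5 with an adjusted p of 0.017 and U6 with 0.015), U4 was 0.0078, other small RNAs were 43 higher, and 2 classes differed between the lines. By level, 8 of 73 members of 1 to 10 CPM, 1 of 23 of 10 to 100 CPM and 0 of 21 of at least 100 CPM were called by edgeR (6 of these 21 had an unadjusted p under 0.05, and DESeq2 called 4). What depth limits was not tested.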
